A study of Danio rerio with 6 samples.

Results

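The actinotrichia and fin fold adhesion genes described here are 10 zebrafish genes, namely the actinodins and1, and2 and and3, the Fraser complex genes fras1, frem1a and frem2a, the hemicentins hmcn1 and hmcn2, the fibulin fbln1 and the laminin chain gene lama5. They were found on the array as the non-control probes whose RefSeq accession, taken without its version, belongs to one of these symbols. In all, 9 of the 10 genes had such a probe, out of 12900 named genes on the array, and hmcn2 was not analysed here. The 9 genes have 16 probes. Of these, 14 probes of 8 genes passed the filter on dim probes, which keeps a probe if either all 6 control channels or all 6 trained channels read it well above background. The 2 probes that did not pass are both of fbln1, which encodes a secreted protein of the extracellular matrix. One of them was well above background in 3 of 6 control channels and 3 of 6 trained channels, and the other in 0 and 0, so fbln1 has no ratio here.

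The larval fin fold is a flat sheet of skin stiffened by actinotrichia, which are unmineralised fibres of collagen and actinodin that lie under the epidermis and precede the bony fin rays. In zebrafish, loss of and1 and and2 function impairs the formation of these fibres. The epidermis is held to the underlying matrix by the Fraser complex, built from Fras1 and Frem proteins, and by hemicentins, fibulin 1 and laminins of the basement membrane. Zebrafish mutants of fras1 (pinfin), frem2a (blasen), frem1a (rafels) and hmcn1 (nagel) have blistered fin folds, mutants of lama5 (fransen) have damaged fin fold edges, and hmcn2 acts together with fbln1 in the same tissue.

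The study asked what swim-training does to the developing caudal fin of zebrafish larvae. Wildtype larvae were trained from 5 to 10 days post fertilisation in daily sessions of 3 h, and caudal fins were taken at 10 days from trained larvae and from controls of the same age and strain. Each RNA sample is a pool of the fins of 15 larvae, and there are 2 pools of control larvae, C2 and C3, beside 2 of trained larvae, T2 and T3. Each of 6 two-colour arrays carried a trained and a control pool of the same number, which makes 2 pool pairs. Pair 2 (T2 with C2) was hybridised on 4 arrays, 2 in each dye orientation, and pair 3 (T3 with C3) on 2 arrays, 1 in each. In pair 2, 1 array of each orientation is a technical repeat. The arrays lie on 2 slides. Pair 2 has both orientations on each slide, whereas the 2 arrays of pair 3 lie on different slides, so dye and slide cannot be told apart there. The labels do not say whether pools of one number share a clutch or a day. In a pool of whole fins, fewer cells of a type and less RNA per cell cannot be told apart.

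Between 54.2% and 81.1% of the spots of an array were well above background, 6 to 18 spots per array were flagged, and 0 were saturated. All values below are log2 ratios of trained over control unless they are called pool levels. Over the 15777 genes tested, the SD of the ratio was 0.15 in pair 2 and 0.53 in pair 3, so a ratio of a given size is more common in pair 3. The tissue label was checked against marker genes. All 16 epidermal markers on the array and 8 of 10 fin fold mesenchyme markers passed the filter, as did 13 of 13 muscle markers, 9 of 9 cartilage markers, 8 of 8 osteoblast markers, 5 of 5 notochord markers and 11 of 11 markers of neurons and glia. For other cells, 3 of 6 markers passed for melanophores, 4 of 7 for blood and vessels and 5 of 7 for leukocytes. Of all 12900 named genes on the array, 9242 passed and were tested, and these counts are to be read against that share. Among markers of gut, liver and pancreas, which a caudal fin does not hold, 5 of 9 passed as well (ela2, fabp10a, fabp2, ins and prss1), so passing the filter does not by itself mark a tissue.

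No gene of the group differed between trained and control fins by the test over the 2 pool pairs. With limma on the pair values, 0 of the 8 tested members passed an adjusted p of 0.05, beside 0% of all 15777 genes. Unadjusted, 0 members had p under 0.05, beside 3.96% of all genes. The members' adjusted p ran from 0.752 to 0.994, and 0.752 was also the lowest adjusted p of any gene. Their mean ratios lay between -0.05 and 0.51 with SEs of 0.17 to 0.27. Here and below, SEs are limma's moderated values, which draw each gene's variance towards that of all genes. Their median was 0.06, against 0.04 over all genes. With 2 pairs, the test could not tell ratios of this size from a spread between pools estimated largely from all genes.

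The direction of the members was split. Read at their brightest probes, 4 members lay above 0 in both pairs (and1, and2, fras1 and hmcn1), where 36.6% of all genes did. In both pairs 0 members lay below 0. The other 4 members (and3, frem1a, frem2a and lama5) had opposite signs in the pairs. The shares of all genes below 0 in both pairs, or of opposite sign in them, were not counted. A second fit asked a narrower question, whether T2 differed from C2, or T3 from C3, by more than the spread between hybridisations of the same RNA. It says nothing of the spread between pools. In pair 2, and1, and3, fras1, frem2a and lama5 were higher in the trained pool at an adjusted p under 0.05 (limma on 6 arrays). These are 5 members, where 19.7% of all genes were called higher, and 0 members were lower, where 13.0% of all genes were. For fras1 and lama5 the call in pair 2 held at the brightest probe alone. In pair 3, the trained pool was higher for and1, and2 (at its brightest probe alone) and fras1, 3 members beside 40.0% of all genes. It was lower for and3, frem2a and lama5, again 3 members, beside 30.7%. The members' median ratio was 0.16 in pair 2 and 0.11 in pair 3, against 0.02 and 0.05 over all genes.

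**Figure D1:**
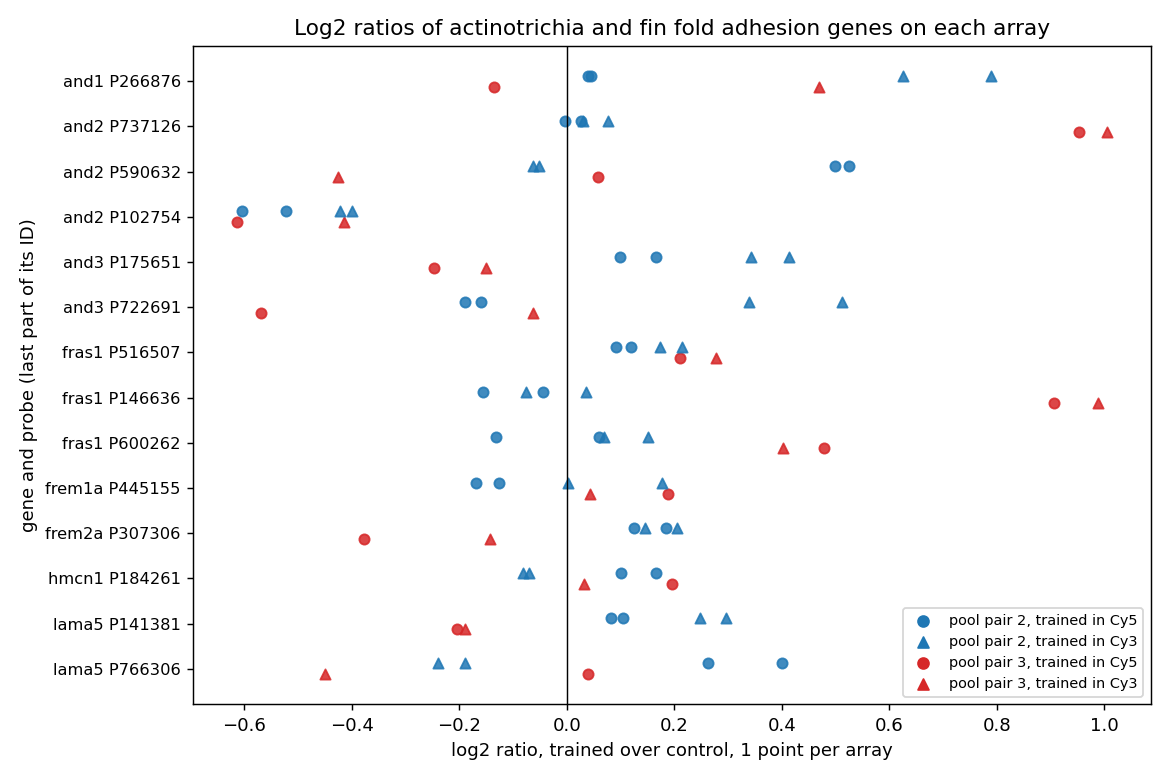
Log2 ratio of trained over control (horizontal axis) on each of the 6 arrays for the 14 kept probes of 8 genes (vertical axis, named by gene and the last part of the probe ID). Blue is pool pair 2 and red is pool pair 3, circles have the trained RNA in Cy5 and triangles in Cy3. The 2 pair 3 arrays lie near 1 for the first probe of and2 and for the second probe of fras1, the third and2 probe lies below 0 on all 6 arrays, and the circles and triangles of and1 are apart.

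The actinodins are the structural proteins of the actinotrichia. The probe of and1 gave 0.04, 0.79, 0.04 and 0.63 on the 4 arrays of pair 2 and -0.14 and 0.47 on the 2 arrays of pair 3. The 3 high values are the arrays with trained RNA in Cy3, and the 3 values near or below 0 are those with trained RNA in Cy5. The mean of and1 was 0.37 in pair 2 (1.30-fold, adjusted p = 3.17e-05 against the spread between hybridisations, limma) and 0.17 in pair 3 (1.12-fold, adjusted p = 0.0215). Its mean over both pairs was 0.27 ± 0.17 (SE, n = 2 pool pairs, adjusted p = 0.752, limma), with both pairs above 0. The dye term of the fit (trained in Cy5 minus the mean of both orientations) was -0.32 ± 0.03 (SE), a size that 1.44% of all kept probes reach. Each pair holds both orientations, so a dye effect that is equal on the arrays of a pair cancels in the mean. On the trained-in-Cy5 arrays alone the ratio of and1 was -0.05, and on the trained-in-Cy3 arrays alone it was 0.59.

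The second actinodin, and2, has 3 probes, and they did not give the same ratio. At its brightest probe the arrays of pair 2 gave 0.03, 0.03, -0.003 and 0.08, and those of pair 3 gave 0.95 and 1.01. The pool levels of this probe were 14.44 in C2, 14.47 in T2, 14.02 in C3 and 15.00 in T3. Both pair 3 arrays lie above all 4 arrays of pair 2, and C3 and T3 lie on either side of the pools of pair 2. The share of all genes whose arrays separate by pair was not counted. The pairs differed for 63.8% of all genes (limma on 6 arrays, adjusted p under 0.05). The ratio was 0.98 in pair 3 (1.97-fold, adjusted p = 4.44e-09 against the spread between hybridisations, limma) and 0.03 in pair 2 (1.02-fold, adjusted p = 0.545). In pair 3, 7.33% of all genes had a ratio of at least this size. The mean over both pairs was 0.51 ± 0.27 (SE, n = 2 pool pairs), with an unadjusted p of 0.115 and an adjusted p of 0.752 (limma), the lowest unadjusted p of the members.

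The second probe of and2 is nearly as bright and gave 0.50, -0.06, 0.53 and -0.05 in pair 2 and 0.06 and -0.43 in pair 3. Within each pair the arrays with trained RNA in Cy5 gave the higher values, the opposite of and1. Its mean was 0.23 in pair 2 and -0.18 in pair 3, and 0.02 ± 0.19 (SE) over both. Against the spread between hybridisations it passed as higher in pair 2 (adjusted p = 0.000695) and as lower in pair 3 (adjusted p = 0.00895, limma on 6 arrays). At this probe T3 was thus not above C3, whereas at the brightest probe it was.

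The third probe of and2 is dimmer and lay below 0 on every array, with -0.52, -0.40, -0.60 and -0.42 in pair 2 and -0.61 and -0.41 in pair 3. The mean was -0.49 in pair 2 and -0.51 in pair 3, and the difference between the pairs had an adjusted p of 0.743 (limma over all 24102 kept probes). Against the spread between hybridisations this probe passed as lower in pair 2 (adjusted p = 1.53e-06) and in pair 3 (adjusted p = 1.87e-06, limma on 6 arrays). Over both pairs it was -0.50 ± 0.17 (SE), with an unadjusted p of 0.0301 and an adjusted p of 0.734. In the test over the pool pairs it thus did not pass either. Of all kept probes, 11.0% lay below 0 on all 6 arrays and 0% passed the adjusted test. The pool levels of the third probe were 8.20 in C2, 7.72 in T2, 9.40 in C3 and 8.89 in T3. Both pools of pair 3 exceeded both pools of pair 2, by 1.20 between the controls and 1.17 between the trained pools. A difference between the control pools of that size was found at 1.76% of the kept probes, and the median size was 0.23. The direction of and2 therefore depended on the probe.

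The paralogue and3, a further actinodin gene, has 2 probes that turned sign between the pairs. The brighter gave 0.17, 0.41, 0.10 and 0.34 in pair 2 and -0.25 and -0.15 in pair 3, so the pairs did not overlap. How many of all genes do the same was not counted. Its ratio was 0.25 in pair 2 and -0.20 in pair 3, and 0.03 ± 0.19 (SE) over both. The dimmer probe gave 0.13 in pair 2 and -0.32 in pair 3, which is the same order, and it had a dye term of -0.28. At this probe the arrays of pair 2 ran from -0.19 to 0.51.

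**Figure D2:**
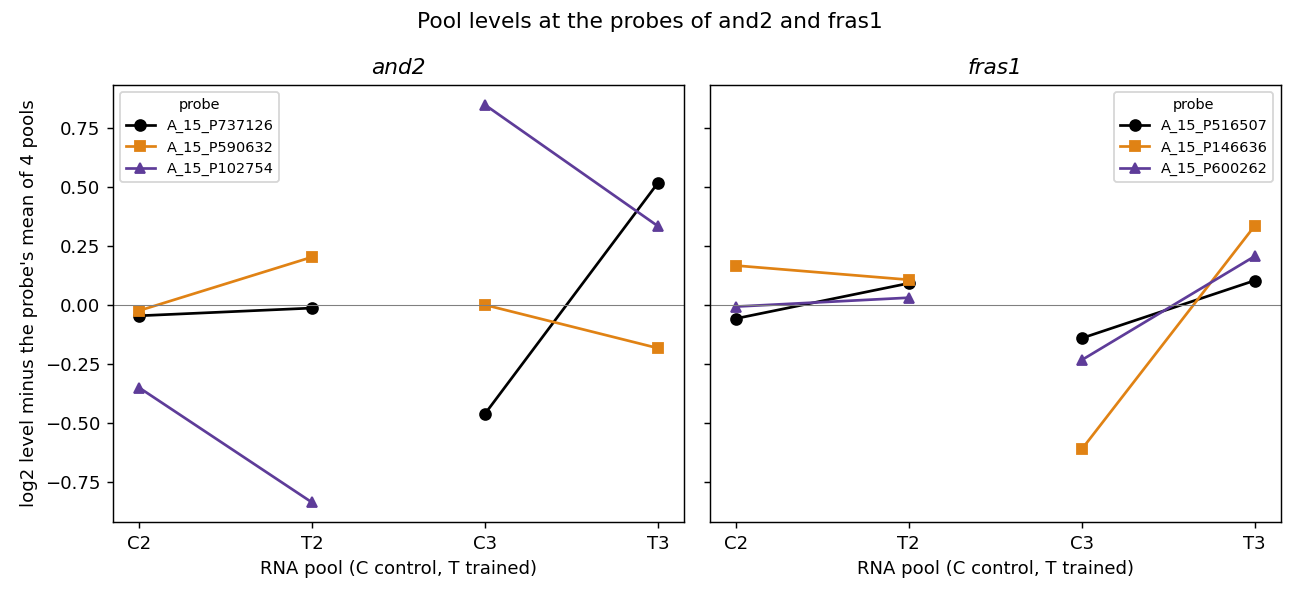
Log2 level of each RNA pool (C control, T trained, number of the pair) minus the mean of the same probe over 4 pools, for the 3 probes of and2 (left) and the 3 probes of fras1 (right). Lines join the pools hybridised together. The lines of and2 go different ways, whereas those of fras1 rise from C3 to T3, the triangles being a probe that was kept through its trained channels alone.

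Among the Fraser complex genes, fras1, which encodes a large protein of the basement membrane that is bound to the epidermal cell surface, was the one member above 0 on all 6 arrays at its brightest probe, where 11.8% of all genes were above 0 and 8.37% below 0 on all 6. That probe gave 0.09, 0.17, 0.12 and 0.21 in pair 2 and 0.21 and 0.28 in pair 3. The ratio was 0.15 in pair 2 (adjusted p = 0.00962, limma on 6 arrays) and 0.24 in pair 3 (adjusted p = 0.00122), and the pairs differed by 0.09 (adjusted p = 0.224). Over both pairs it was 0.20 ± 0.17 (SE, n = 2 pool pairs, adjusted p = 0.786).

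The second probe of fras1 was also higher in T3, by far more. It gave 0.91 and 0.99 on the arrays of pair 3, and -0.16, -0.08, -0.04 and 0.04 on those of pair 2. Pool levels of the second probe were 8.54 in C2, 8.48 in T2, 7.76 in C3 and 8.71 in T3. At both of these probes C3 was the lowest of the 4 pools and T3 the highest, though T3 exceeded T2 by only 0.01 at the brightest probe and by 0.23 at the second. C3 differed from C2 by -0.08 and -0.78. The size in pair 3 thus varied with the probe, at 0.24 and 0.95, and in pair 2 they had 0.15 and -0.06. The second probe did not pass in pair 2 (adjusted p = 0.290, limma on 6 arrays). The third probe was well above background in 4 of 6 control channels and in 6 of 6 trained channels, so it was kept through the trained channels alone, and a higher trained level there supports nothing. It had 0.04 in pair 2 and 0.44 in pair 3.

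The probes of frem1a and frem2a, whose proteins join Fras1 in the complex, are dim, and the offset added to the signal draws their ratios towards 0. For frem1a the arrays ran from -0.17 to 0.18 in pair 2, and gave 0.19 and 0.04 in pair 3. The ratio was -0.03 in pair 2 and 0.12 in pair 3, neither of which passed the test against the spread between hybridisations (adjusted p = 0.706 and 0.178, limma). With a smaller offset of 10, frem1a had 0.23 in pair 3 and still did not pass there (adjusted p = 0.158, limma). The authors' processed signals carry no such offset, but their background subtraction and dye normalisation differ as well. With those signals frem1a had 0.66 in pair 3 and passed there (adjusted p = 0.0141, limma). Which of these differences raised the ratio was not tested. For frem2a the arrays gave 0.18, 0.15, 0.12 and 0.21 in pair 2 and -0.38 and -0.14 in pair 3, so all 4 arrays of one pair lie above 0 and both of the other below. The share of all genes split in this way was not counted. Its ratio was 0.16 in pair 2 and -0.26 in pair 3.

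The hemicentin gene hmcn1, which encodes a long extracellular protein at the epidermal basement membrane, is likewise read by a dim probe. The arrays gave 0.17, -0.07, 0.10 and -0.08 in pair 2 and 0.20 and 0.03 in pair 3, with the higher values on the arrays that had trained RNA in Cy5. Its ratio was 0.03 in pair 2 and 0.11 in pair 3, and neither passed (adjusted p = 0.604 and 0.0782, limma on 6 arrays). In pair 3 it passed with the processed signals (0.31, adjusted p = 0.0199), with an offset of 10 (0.22, adjusted p = 0.0148) and when genes were read by the mean of their probes (0.11, adjusted p = 0.0480). As hmcn1 has a single probe, the last setting leaves its ratio unchanged, and only the fit over all genes differed. The levels of hmcn1 in the pools were 6.38 in C2, 6.41 in T2, 6.47 in C3 and 6.59 in T3.

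The laminin gene lama5, which encodes the alpha chain of epidermal laminins, has 2 probes. The brighter gave 0.08, 0.30, 0.11 and 0.25 in pair 2 and -0.20 and -0.19 in pair 3. Its pool levels were 9.44 in C2, 9.62 in T2, 9.85 in C3 and 9.65 in T3, so that the pools differed most between C2 and C3 (0.41) and the trained pools hardly at all (0.03). The ratio was 0.18 in pair 2, -0.20 in pair 3 and -0.01 ± 0.19 (SE) over both. The dimmer probe was also higher in pair 2 (0.06) than in pair 3 (-0.20), with arrays from -0.24 to 0.40 in pair 2 that followed the dye orientation. In pair 2 the dimmer probe did not pass (adjusted p = 0.302, limma on 6 arrays).

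The 2 pool pairs differed for 5 of the 8 members at an adjusted p under 0.05 (limma on 6 arrays, against the spread between hybridisations), beside 63.8% of all genes. Pair 3 was above pair 2 for and2, by 0.95 ± 0.07 (SE, adjusted p = 8.50e-08), and below it for and3, by -0.45 ± 0.07 (adjusted p = 0.000105), frem2a, by -0.42 ± 0.07 (adjusted p = 0.000248), lama5, by -0.38 ± 0.07 (adjusted p = 0.000405), and and1, by -0.21 ± 0.07 (adjusted p = 0.0222). The share of members is close to that of all genes. The median size of the members' ratio was 0.16 in pair 2 and 0.20 in pair 3, against 0.080 and 0.279 over all genes.

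**Figure D3:**
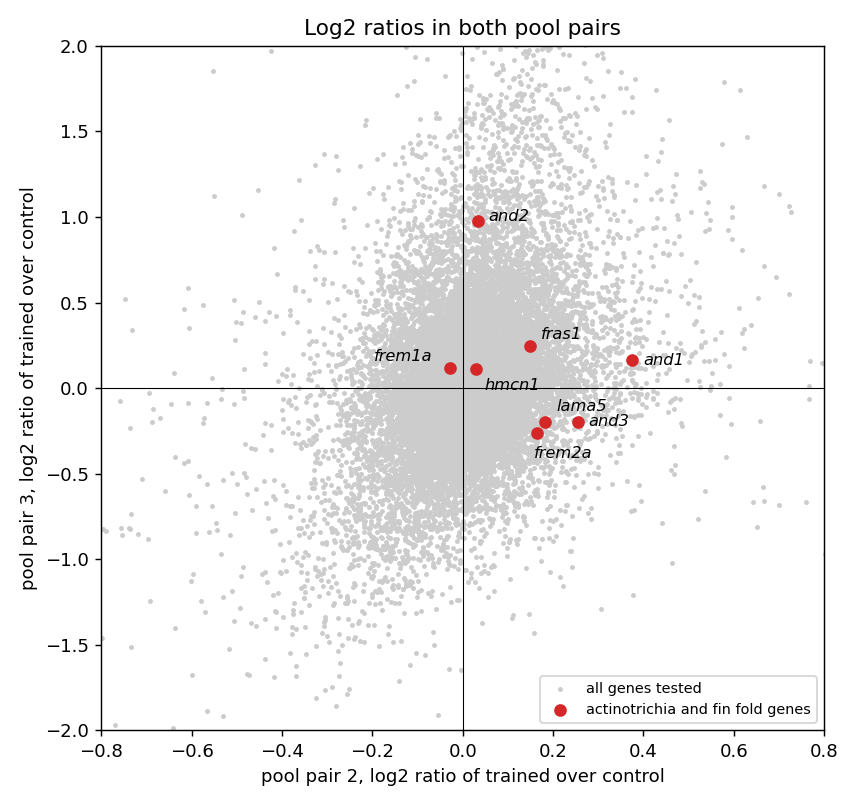
Log2 ratio of trained over control in pool pair 2 (horizontal axis) and in pool pair 3 (vertical axis, on a wider scale) for the 8 tested members (red, named) and all genes tested (grey, 93 genes beyond the axes not drawn). The member farthest from 0 is and2, at 0.98 in pair 3 and 0.03 in pair 2, and and3, frem2a and lama5 lie right of 0 and below 0.

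Many calls within a pair changed with the processing. With the outlying local backgrounds of 1 array of pair 3 left as deposited, 722 genes differed in pair 2 and 1129 in pair 3, against 5166 and 11153 otherwise. In that setting and3, fras1, frem2a and lama5 no longer passed in pair 2, with the ratios themselves at 0.25, 0.15, 0.16 and 0.18 as before, nor did and1, and3, fras1, frem2a and lama5 in pair 3. With the processed signals, and1 in pair 3 and frem2a and lama5 in pair 2 did not pass (adjusted p = 0.0563, 0.0614 and 0.0987, limma on 6 arrays). With scaling between arrays, and1, and3 and lama5 did not pass in pair 3 (adjusted p = 0.137, 0.0697 and 0.0649), and without the technical repeats fras1 and frem2a did not pass in pair 2 (adjusted p = 0.176 and 0.0751). With the mean of its probes and2 had 0.09 in pair 3 and did not pass (adjusted p = 0.0844). When each array was centred on its median in place of loess, the mean of and1 over both pairs dropped to 0.02. In pair 3, and1 then had -0.31 and passed as lower (adjusted p = 0.00355, limma on 6 arrays), the opposite of its call after loess. There fras1 had -0.09 and did not pass (adjusted p = 0.461). The sign of both in that pair thus depended on the normalisation.

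The genes whose 6 array ratios were nearest to those of and1, by root mean square difference among named genes, were snrnp70 (0.130), fxr1 (0.145) and mylpfb (0.148). They encode a small nuclear ribonucleoprotein, an RNA-binding protein and a fast muscle myosin light chain. This likeness includes the dye difference that and1 shows.

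Beside the members, 6 wider lists of genes were read, of which the first 4 described here also hold members. In each list 0 genes passed the test over the pool pairs, beside 0% of all genes. Counts within a pair are to be read against the shares of all genes, 19.7% higher and 13.0% lower in pair 2 and 40.0% higher and 30.7% lower in pair 3. Those above 0 in both pairs are to be read against 36.6% of all genes, here and for the markers below. The share of all genes below 0 in both pairs was not counted. The list of actinotrichia proteins and collagens also holds genes for the folding and crosslinking of collagen. Of its 21 tested genes, 6 lay above 0 in both pairs and 5 below, and the median was 0.03 (pair 2) and -0.06 (pair 3). In this list 5 genes were higher and 6 lower in pair 2 by the test within the pair, and 9 and 9 in pair 3. The type IX collagen gene col9a1a had -0.57 in pair 2 and -1.31 in pair 3 (mean -0.94 ± 0.23, SE), and the collagen chaperone gene serpinh1a had -0.57 and -0.56 (mean -0.56 ± 0.16). The fibrillar collagen gene col5a2a had -0.71 ± 0.25. These are the non-members of the list with the smallest unadjusted p, and each had an adjusted p of 0.752. The fourth actinodin, and4, had 0.11 in pair 2 and 0.44 in pair 3. It was above 0 in both pairs, as were 36.6% of all genes, with a mean of 0.28 ± 0.18 (SE, adjusted p = 0.757, limma).

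Of the 8 tested genes of the Fraser complex and its partners, 4 were above 0 in both pairs and 0 below. Pair 2 had 3 genes higher and 0 lower, and pair 3 had 3 higher and 1 lower. Ratios here were small. The adaptor gene grip2a had 0.12, and the Fraser complex genes frem2b and frem3 both had 0.09, with SEs of 0.17. The list's median was 0.06 in pair 2 and 0.12 in pair 3.

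Of the 9 tested fibulins, hemicentins and microfibril genes, 4 were above 0 in both pairs and 3 below, with 0 higher and 3 lower in pair 2 and 3 higher and 2 lower in pair 3. The microfibril gene mfap2 had -0.11 in pair 2 and -0.82 in pair 3, mfap4.1 had a mean of -0.25 and the fibulin gene efemp2a -0.17. The list's median was 0.00060 in pair 2 and 0.11 in pair 3.

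Of the 9 tested laminins and other basement membrane genes, 2 were above 0 in both pairs and 2 below. In pair 2, 3 were higher and 2 lower, and in pair 3, 5 were higher and 2 lower. The laminin beta chain gene lamb4 had 0.28 in pair 2 and 0.55 in pair 3, and the collagen IV gene col4a5 had -0.05 and 0.89. The laminin alpha chain gene lama4 had a mean of -0.29. The list's median of -0.06 in pair 2 and 0.24 in pair 3 changed sign between the pairs.

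A further list held 15 tested genes, mostly for receptors and linkers that tie epidermal cells to the basement membrane. Of these 15 genes, 5 were above 0 in both pairs and 3 below. Pair 2 had 2 genes higher and 2 lower, and pair 3 had 7 higher and 5 lower. The plectin gene pleca had 0.04 in pair 2 and 1.54 in pair 3, and the hemidesmosome integrin gene itgb4 had 0.03 and 0.66. The integrin gene itgb1b had a mean of -0.34. The list's median was 0.0083 in pair 2 and -0.0016 in pair 3.

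Of the 33 tested regulators of fin fold ectoderm and mesenchyme, 7 were above 0 in both pairs and 6 below, with 9 higher and 7 lower in pair 2 and 11 higher and 15 lower in pair 3. The mesenchymal transcription factor gene twist2 had -0.25 in pair 2 and -0.67 in pair 3. The homeobox genes hoxc13b and dlx3b had means of -0.51 and 0.36. The list's median was 0.02 in pair 2 and -0.10 in pair 3.

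**Figure D4:**
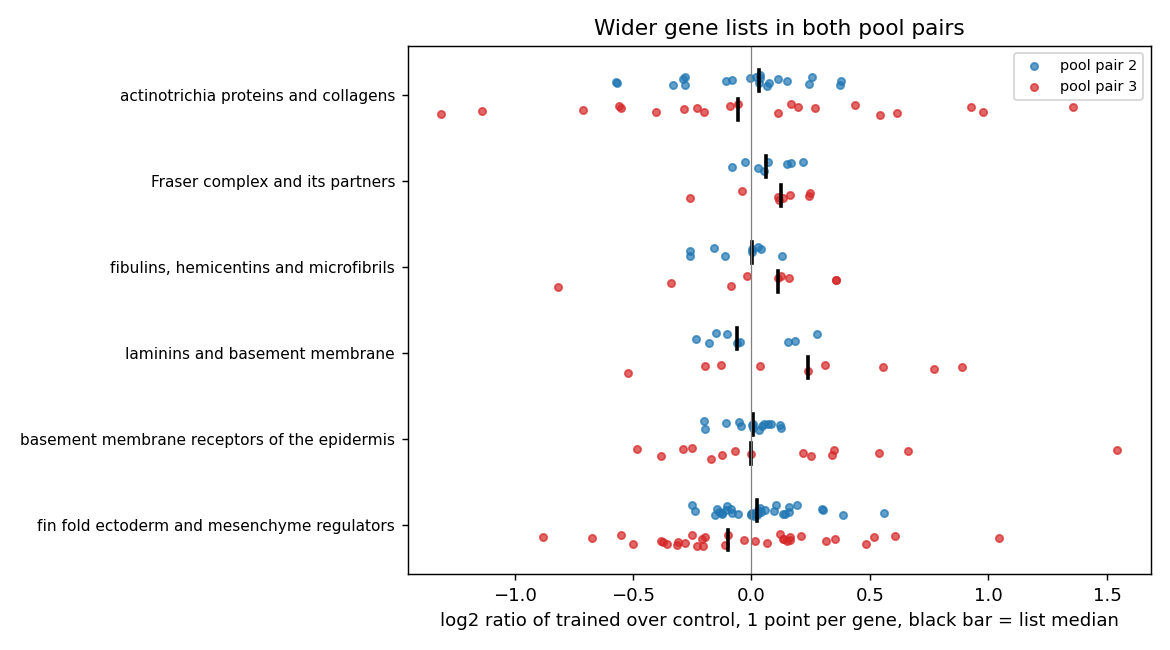
Log2 ratio of trained over control (horizontal axis) for each tested gene of the 6 wider lists, in pool pair 2 (blue) and pool pair 3 (red), with the list median as a black bar. All list medians lie between -0.10 and 0.24, and the genes spread more widely in pair 3 than in pair 2.

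The actinodins and the Fraser complex genes are made in the skin and the fin fold mesenchyme, and markers of these cells were read beside them. Of the 16 epidermal markers, 10 were above 0 in both pairs and 1 (krt8) below, and their median was 0.16 in pair 2, the same as that of the members, and 0.21 in pair 3. Of the 8 tested fin fold mesenchyme markers, 1 was above 0 in both pairs and 3 below, with medians of -0.07 and -0.20. Among markers of other cell types, the medians of some lists turned sign between the pairs. The median of the 13 muscle markers was 0.34 in pair 2 but -0.15 in pair 3, with 4 above 0 in both pairs and 1 below. The 4 tested blood and vessel markers had medians of 0.10 and -0.58, with 0 above in both pairs and 0 below. The 9 cartilage markers had -0.34 and 0.17, with 0 above in both pairs and 3 below. The 8 osteoblast markers had -0.03 and 0.43, with 4 above in both pairs and 2 below. The 11 markers of neurons and glia had medians of -0.04 and 0.17. The median kept its sign for the 5 tested notochord markers (-0.11 and -0.0041) and the 3 of melanophores (-1.11 and -1.10). It also did so for the 5 tested leukocyte markers (0.08 and 0.04) and the 5 of gut, liver and pancreas (0.04 and 0.09). The part of these cell types in the members' ratios was not tested.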

How the data were processed

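Pooled caudal fin RNA of trained and control larvae was compared on 6 two-colour arrays in 2 pool pairs. Scans were extracted with Agilent Feature Extraction 10.5.1.1, per the submitters' processing notes. The deposited scanner files give median spot and background intensity per channel, and, per the file headers, processed intensity (background subtracted, dyes normalised) with its log10 ratio, Cy5 divided by Cy3. An alternative used the deposited table, which holds this log10 ratio too. Probes were named through RefSeq (assembly GRCz12tu); the headers name an older build, so coordinates are not given. RefSeq accessions named 25173 of 43603 probes.

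With R 4.3.3, limma 3.58.1 and the R package data.table (version 1.17.8), intensities were corrected by normexp (offset 50), after local backgrounds over 10 median absolute deviations from an array's median were set to that median (18 green and 17 red on 1 array of pair 3, a step known from earlier results of these data). Loess followed within each array, giving control and flagged spots no weight. Spots of a probe were averaged, without the flagged ones. Ratios were turned to trained over control by the labels' dyes. The brightest kept probe stood for a gene. Pool levels came from separated channels after loess and Aquantile, and cannot be compared between probes.

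Pair values (means per orientation, then over both) were tested against 0 with limma, two-sided, with Benjamini-Hochberg adjustment at 0.05 over 15777 genes. This leaves 1 residual degree of freedom and a prior of 4.11. A second limma fit on 6 arrays had a coefficient per pair and a dye term. Both were also run on simulated data with the same spread for every gene of a pair. That checks the code and not what can be detected here. The p-values of the first fit rest on a spread between pools that is estimated largely from all genes. The labels do not tie these pools to separate clutches. Pools of a number were hybridised together. Across genes, C2 minus C3 correlated with T2 minus T3 at 0.187, and the labels give no source of pairing beyond the number.

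The members and lists were chosen with earlier results of these data known. Named genes are all members and their kept probes, up to 3 other genes per list by unadjusted p, and the 3 nearest to and1. The gene and4 and the marker genes krt8, ela2, fabp10a, fabp2, ins and prss1 were named after their values were seen. Alternatives covered background, normalisation, filter, probe choice, technical repeats, blocks and the prior.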

Additional observations from a re-analysis of the deposited data

Results flagged for a closer look

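The difference between the pool pairs (pair 3 minus pair 2, log2 ratio) passed limma on the 6 arrays for 5 members, as it did for 63.8% of all genes, measured against the spread between hybridisations and not between pools. It was 0.95 for and2 at its brightest probe, and -0.45 for and3, -0.42 for frem2a, -0.38 for lama5 and -0.21 for and1. Pair 3 has 2 arrays and pair 2 has 4. In pair 3, 1 array carried the outlying local backgrounds, and with these left as deposited 555 genes differed between the pairs in place of 10067. Other probes gave a difference of -0.41 and -0.03 for and2, -0.44 for and3 and -0.26 for lama5. For fras1, whose brightest probe did not differ between the pairs, the second probe differed by 1.01.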

How the results depend on the processing

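No member passed the test of trained against control under any alternative run, the lowest adjusted p being 0.179 (limma). Not all of these tests were over the pool pairs. The fits with a random block for the pair and with slide as a block used the 6 arrays. With slide as a block no term marked the pair, so arrays that share their pools counted as replicates. The number of genes passing was 0, but 29 with a random block for the pair, 15 with slide as a block and 6 with an intensity trend and robust prior. With no replicate block, on 4 pools from separate channels, it was 0 as with the pairing. Genes called in pair 2 numbered 5166, but 722 with local backgrounds as deposited, 3260 with median centring and 2938 without the technical repeats. In pair 3 they were 1129 in place of 11153, and between the pairs 555 in place of 10067, with local backgrounds as deposited. The members' median of 0.06 became 0.115 at an offset of 10, 0.205 with processed signals and with the deposited table, 0.0262 with the mean of a gene's probes and 0.104 within slide 1. It was 0.114 to 0.157 with a single pool pair and 0.0630 without the technical repeats. By dye orientation, examined after seeing the data, it was -0.0132 (trained in Cy5) and 0.0902 (trained in Cy3).

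Among tested values, these signs turned. The mean of and3 became -0.0457 with backgrounds as deposited, -0.196 with median centring, -0.0333 with the mean of its probes and -0.0948 at its other probe. That of lama5 became 0.0223 with backgrounds as deposited, 0.0276 with scaling between arrays and 0.0561 with slide as a block, where frem2a became 0.0233. The mean of and2 was -0.50 at the dimmest of its 3 probes. In pair 2, and2 had -0.0161 with median centring, -0.0756 with the mean of its probes and -0.49 at its dimmest probe, and fras1 had -0.0601 at the second probe. In pair 3, and1 had -0.31 (passing as lower) and fras1 -0.0857 (not passing) with median centring, and and2 had -0.51 and -0.18 at its dimmest and its second brightest probe. With no test, single pool pairs turned frem1a (-0.0289), frem2a (0.165), lama5 (0.183) and and3 (-0.199), slide 1 alone lama5 (0.0575), slide 2 alone lama5 (0.0546) and frem2a (0.0624), trained-in-Cy5 arrays and1 (-0.0465) and and3 (-0.0576), and trained-in-Cy3 arrays frem2a (0.0168), hmcn1 (-0.0223) and lama5 (0.0412). The mean of and1 was 0.0246 with median centring. Calls within a pair were also lost for and1 in pair 3 with the deposited table (adjusted p = 0.0562) and no filter (0.0585), frem2a in pair 2 with the deposited table (0.0616) and median centring (0.0879), lama5 in pair 2 with the deposited table (0.0986), and fras1 in pair 2 with the mean of its probes (0.378), and gained in pair 3 with the deposited table for frem1a (0.0141) and hmcn1 (0.0201), all by limma on 6 arrays. Probes other than the brightest were examined after seeing the data. The cause of these changes was not tested. Dim probes (frem1a, frem2a, hmcn1) limit what can be seen of those genes.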
